A study of Mus musculus with 4 samples.

Results

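Molecular chaperones of the cytosol and mitochondria, with the J proteins and cofactors that serve them, were followed in CA1, a field of the hippocampus, of mice over the hours after foot shock. They were found by gene symbol, by a rule that reads no measured value but was written with earlier results of these data known. The set takes probe sets with 1 symbol of the Hspa, Hspb, Hspd, Hspe, Hsph, Hsp90a, Dnaj, Cct and Bag families, with Tcp1, Stip1 and Cryab and without Hspa5, Hsp90b1 and Hspbap1. This gave 90 probe sets for 60 genes, of 12422 probe sets other than controls and 8251 genes with a symbol of their own. On these arrays several short oligonucleotides make up a probe set, and their joint signal stands for 1 transcript. A further 2 probe sets, of Dnajc19 and its pseudogene, carried several symbols and were left out. Of the 67 probe sets read on all arrays, 17 have a letter in their name, which marks oligonucleotides that may match other transcripts or break a design rule. These belong to Bag2, Bag6, Cct3, Cct6a, Cryab, Dnajc15, Dnajc2, Dnajc3, Dnajc8, Hspa4, Hspb2 and Hspbp1.

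Total RNA came from young male C57BL/6J mice that received 3 foot shocks of 0.5 mA and were sampled 1, 2, 4 or 6 h after the last of them, with 1 array for each time. All 4 samples carry the label shock alone, which includes 2 h in the new context before the shocks, and the labels do not give the number of mice in a sample. Unshocked mice were not analysed here, so no baseline is available and the times are compared with each other. Without replicates there is no test, no error and no p-value, and precision is limited by the single array at each time.

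Chaperones bind proteins that are unfolded or still being made and help them reach or keep their folded form. HSP70 proteins do this in cycles of ATP use that J proteins start and that nucleotide exchange factors of the HSP110 and BAG families reset. HSP90 acts late on kinases and steroid receptors, the ring-shaped chaperonin TRiC folds actin and tubulin, and small heat shock proteins hold unfolded proteins in solution. In stressed cells the transcription factor HSF1 binds heat shock elements, inverted repeats of the letters GAA, and induces part of the family. Neurons express several members at high levels without stress, Hspa8 and the HSP90 genes among them.

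The name of the set holds for most of its members but not for all. Of the 60 genes, 5 encode J proteins of the endoplasmic reticulum (Dnajb9, Dnajb11, Dnajc1, Dnajc3 and Dnajc10), read by 10 probe sets, and 6 encode mitochondrial proteins (Hspa9, Hspd1, Hspe1, Dnaja3, Dnajc11 and Dnajc15), read by 7. Hspb11 is named with the small heat shock proteins, but its product is known as a subunit of intraflagellar transport. Dnajc8 is known for its link to splicing, Dnajc9 as a histone chaperone and Dnajc5 as the cysteine string protein of synaptic vesicles.

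Promoters of the members carried heat shock elements in some cases, and the windows below are shown because they hold the densest runs of the element or belong to the classic inducible gene. RefSeq windows on GRCm38.p6 from 250 bases before to 50 bases after the start were found for 51 of the 60 genes, in 65 windows. Cct4, Cryab, Dnajc11, Dnajc2, Dnajc5, Hsp90aa1, Hspa8, Hspa9 and Hspb2 had none in the table. The letters searched were GAANNTTC and TTCNNGAA, each of which reads the same on both strands. At least 1 of them was found in 26.2% of the members' windows (17 of 65, for 15 genes) and in 15.1% of all 32851 windows. At least 1 of the longer forms GAANNTTCNNGAA and TTCNNGAANNTTC, which are each other's reverse complement and overlap the short ones, was found in 9.23% of the members' windows and 0.603% of all. The member windows with the longer form belong to 4 genes, Dnajb6, Hspd1, Hspe1 and Hsph1. Dnajb6 and Hsph1 each have overlapping windows that hold the same match, and Hspd1 and Hspe1 share a run. These windows are thus not separate sites, and the shares were not tested. A match describes the letters and is not a shown binding site. Capitals mark the short matches, which merge where they overlap, and the windows of Hspd1 (chr1:55087883-55088182), Hsph1 (chr5:149636266-149636565) and Hspa1a (chr17:34972107-34972406) lie on the minus strand and that of Dnajb6 (chr5:29735648-29735947) on the plus strand.
Hspd1: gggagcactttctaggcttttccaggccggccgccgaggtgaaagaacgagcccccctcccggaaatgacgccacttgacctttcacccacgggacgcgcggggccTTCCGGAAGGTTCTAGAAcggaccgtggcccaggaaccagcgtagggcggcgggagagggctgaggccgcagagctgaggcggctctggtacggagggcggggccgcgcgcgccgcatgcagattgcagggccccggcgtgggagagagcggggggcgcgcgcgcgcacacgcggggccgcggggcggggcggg
Hsph1: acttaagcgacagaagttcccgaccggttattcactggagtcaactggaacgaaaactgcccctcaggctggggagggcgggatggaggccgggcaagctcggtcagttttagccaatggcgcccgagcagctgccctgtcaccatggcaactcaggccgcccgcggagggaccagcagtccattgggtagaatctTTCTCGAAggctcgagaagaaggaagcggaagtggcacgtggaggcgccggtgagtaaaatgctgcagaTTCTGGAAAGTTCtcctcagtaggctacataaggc
Dnajb6: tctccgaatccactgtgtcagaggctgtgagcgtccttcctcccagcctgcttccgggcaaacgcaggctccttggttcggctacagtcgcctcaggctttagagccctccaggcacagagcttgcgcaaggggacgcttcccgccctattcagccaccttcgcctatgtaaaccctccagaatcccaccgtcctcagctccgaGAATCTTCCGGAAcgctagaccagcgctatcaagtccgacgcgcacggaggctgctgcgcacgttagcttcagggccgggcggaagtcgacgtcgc
Hspa1a: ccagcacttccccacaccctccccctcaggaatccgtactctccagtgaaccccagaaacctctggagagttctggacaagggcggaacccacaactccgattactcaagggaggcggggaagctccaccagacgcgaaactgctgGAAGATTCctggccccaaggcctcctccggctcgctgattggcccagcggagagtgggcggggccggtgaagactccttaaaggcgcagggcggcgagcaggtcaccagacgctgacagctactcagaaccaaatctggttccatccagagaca

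The Hspd1 window shares 285 bases with that of Hspe1 on the opposite strand, so the same run of elements stands 144 to 134 bases before the Hspd1 start and 89 to 79 bases before the Hspe1 start, counted to the first base of each match. The Hspa1b window has the same base as the Hspa1a window at 296 of 300 positions and its match at the same place, 104 bases before the start. Such near-identical genes can share probes, so the readings of Hspa1a and Hspa1b cannot be assigned to 1 gene with certainty.

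The chaperones varied over the 4 times about as much as other probe sets of the array. Of the 90 probe sets, 67 lay above the floor on all 4 arrays, 10 on some and 13 on none. The floor of 100.8 intensity units is the 40th percentile of all scaled values, and readings below it give only a bound. The highest array exceeded the lowest by at least 1.5-fold in 20 of these 67, which is 29.9%, while the share over all probe sets was 27.9%. The median range was 1.32-fold in the members and 1.32-fold in all 6442 probe sets above the floor on all 4 arrays. The width went with brightness. Among members with a mean intensity of at least 500 it reached 1.5-fold in 5 of 35, against 12.4% of all such probe sets, and among the dimmer ones in 15 of 32, against 45.2%.

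**Figure D1:**
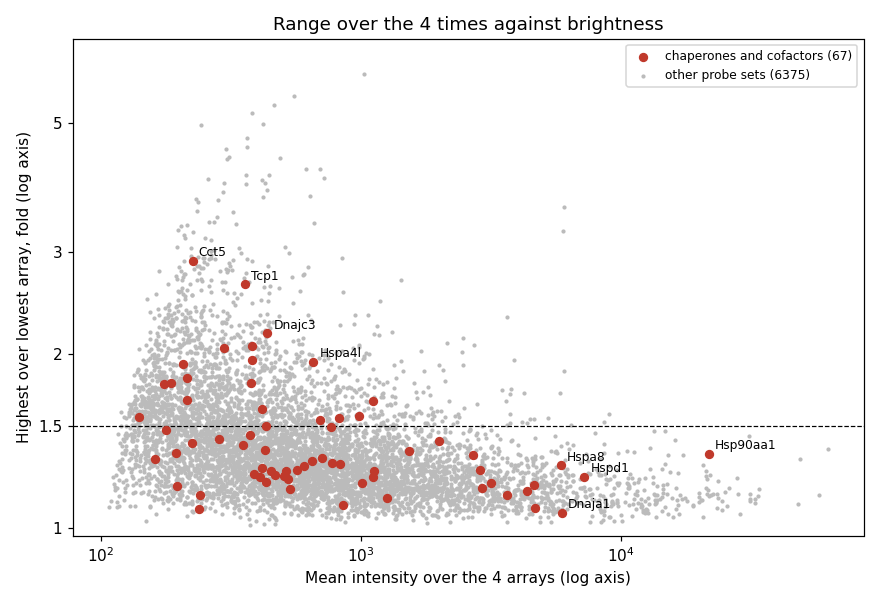
Highest over lowest array (fold, log axis) against mean intensity over the 4 arrays (log axis) for 67 chaperone and cofactor probe sets (red) and the other probe sets above the floor on all 4 arrays (grey). The dashed line marks 1.5-fold. Most wide members are dim, and the bright Hsp90aa1, Hspa8, Hspd1 and Dnaja1 lie below the line.

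Later arrays held fewer members above 1 h than below it. At 2 h, 2 of 68 measured probe sets were at least 1.5-fold higher than at 1 h (5.59% of all probe sets) and 7 were lower (4.84% of all). At 4 h, 2 of 70 were higher (3.38% of all) and 6 lower (5.33% of all). At 6 h, 0 of 70 were higher (3.76% of all) and 5 lower (5.82% of all). The lower share in members was 10.3%, 8.57% and 7.14% at the 3 times. These comparisons share the 1 h array, the counts are small, and the members were not tested against the rest. Among members with a mean of at least 500 the lower counts were 1, 0 and 0. The median log2 differences of the 2, 4 and 6 h arrays from 1 h were −0.07, −0.10 and −0.04, against 0.00, −0.01 and −0.02 over all probe sets, while the robust SD of single differences over all probe sets was 0.29 at each of the 3 times.

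**Figure D2:**
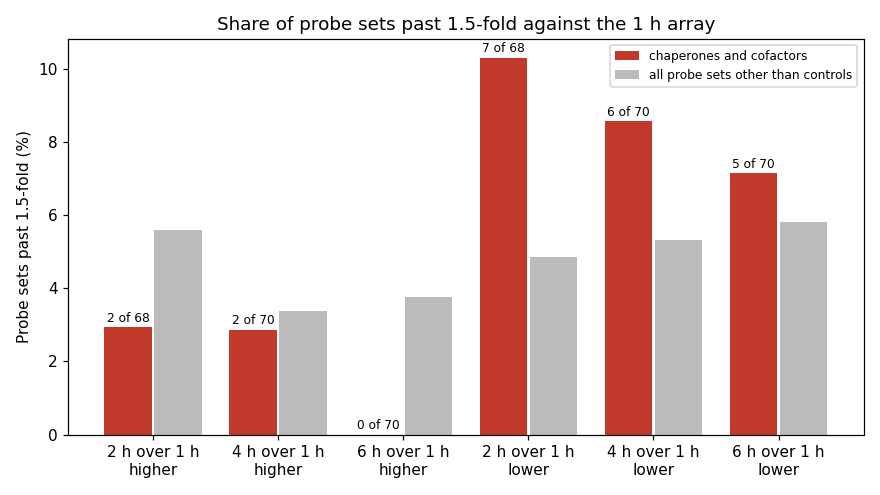
Percent of probe sets at least 1.5-fold higher (left) or lower (right) than on the 1 h array, for chaperones and cofactors (red, with their counts) and for all probe sets other than controls (grey). Red bars are shorter than grey for higher values, where the counts are 2, 2 and 0, and taller for lower values, where they are 7, 6 and 5.

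The order over the 4 arrays depended on scaling. Lower at each later time were 8 of 67 members (4.86% of all probe sets) and higher at each later time was 1, Hsph1 (3.9% of all). After scaling to a common median, 3 of 68 were lower at each later time, against 3.05% of all, and 3 were higher, against 6.57% of all. Quantile normalization gave 6 of 68 lower, against 4.32% of all, and 2 higher, against 4.1%. The deposited values gave 8 of 67 lower, against 4.84%, and 1 higher, against 3.94%. The highest array was 1 h in 23 members, 2 h in 17, 4 h in 14 and 6 h in 13, against 24.8%, 28.7%, 23.1% and 23.5% of all probe sets. The lowest was 1 h in 12, 2 h in 23, 4 h in 17 and 6 h in 15, against 22.8%, 26.7%, 24.3% and 26.2%. The 2 h array was the lowest in more members than any other array, and it also had the highest ratio of 3' to 5' actin control probe sets, 2.70 against 1.84, 1.79 and 1.74 at 1, 4 and 6 h. Its part in these counts was not tested. Without the 2 h array 12 of 69 members had a range of at least 1.5-fold, against 17.6% of all. Leaving out any array can only narrow a range. Without the 1 h array the count was 18 of 68 (20.2% of all), without 4 h 15 of 68 (20.6%) and without 6 h 16 of 67 (20.1%). The members that fall under 1.5-fold without the 2 h array are Bag1, Dnajb6, both probe sets of Dnajb9, Dnajc10, Dnajc9, Hspa4l and Hspb8, with ranges from 1.14-fold to 1.47-fold.

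**Figure D3:**
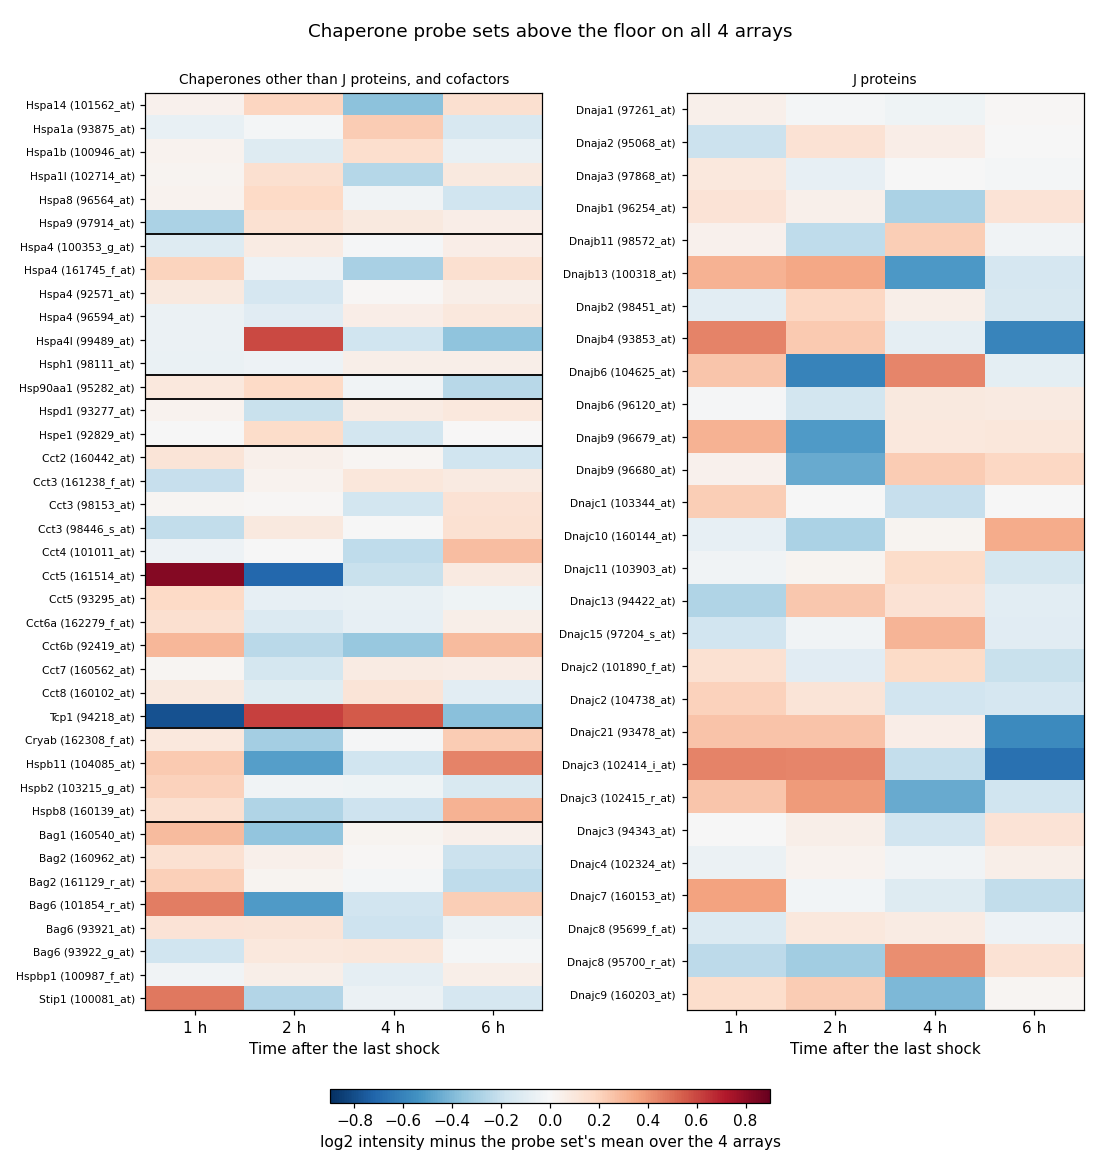
Log2 intensity of each of 67 probe sets minus its own mean over the 4 arrays (colour, red above and blue below), with time after the last shock across and probe sets down, grouped by role with black lines between groups. Strong colours are few, with Cct5, Tcp1, Hspa4l, Dnajb6 and Dnajc3 among them.

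HSP70 genes come first. Hspa8, the constitutive HSP70 of the cytosol, read 6015, 6665, 5756 and 5194 on the arrays of 1, 2, 4 and 6 h, in the order kept below. Its 2 h reading exceeded the 1 h one by 1.11-fold, and the 6 h reading lay 1.16-fold under it. Hspa1a, the classic inducible HSP70, read 788, 818, 967 and 750.2 at the same times, and its near copy Hspa1b read 440.5, 397, 478 and 412. Both stood highest at 4 h, by 1.23-fold and 1.08-fold over 1 h, so neither reached 1.5-fold. Hspa9, the mitochondrial HSP70, read 2201 at 1 h and then 2944, 2845 and 2795. All later readings lay above that of 1 h, the largest by 1.34-fold.

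The other HSP70 members were dim. Hspa1l and Hspa2 are known mainly from the testis, and Hspa14 works with ribosomes. Hspa1l read from 135 to 178 and Hspa14 from 136 to 201, both lowest at 4 h. Hspa2 read 93.7, 155, 131 and 141, so that only its 1 h reading was below the floor, and at 2 h it was at least 1.54-fold above that floor. None of the 6 members above the floor on all 4 arrays had a range of 1.5-fold. Over all probe sets the share was 27.9%, or 12.4% with a mean of at least 500 and 45.2% below it. A count of 0 in 6 is thus not a result about these genes. The median difference of the 6 from 1 h was 0.13, 0.03 and −0.00 (log2) on the 2, 4 and 6 h arrays.

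Among the HSP110 exchange factors, Hspa4l stood apart at 2 h. It read 615, 960.4, 563 and 495, with 2 h exceeding 1 h by 1.56-fold, and the highest array exceeded the lowest by 1.94-fold. The 2 h reading lay above each of the other 3. Being apart in this way, at least 1.5-fold above or below each other array, held for 4 of 67 members (6.3% of all probe sets). Hsph1, which encodes HSP110 itself, read 4475, 4524, 4836 and 4844, within 1.08-fold although higher at each later time. Hspa4 has 5 probe sets, of which the brightest read 3531, 3422, 3828 and 3909. Its 3 dimmer ones above the floor on all arrays read between 176 and 256, with ranges from 1.14-fold to 1.40-fold, and the fifth was above the floor at 1 h alone, at 116.

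Hsp90aa1, the inducible cytosolic HSP90 and the only HSP90 gene among the members, read 23176, 24535, 21240.1 and 18264, lowest at 6 h, where it lay 1.27-fold under the 1 h reading. Its second probe set read from 2.9 to 40.3, below the floor on all 4 arrays, so 1 probe set carries the gene. Hspa8 had the same order of the 4 arrays. Markers of the choroid plexus were highest on the 6 h array, with a summed intensity of 5245 against 386, 327 and 613 at 1, 2 and 4 h over the 3 of 4 listed genes on the array, and none of these was at 0. Their part in the 6 h readings was not tested.

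The mitochondrial chaperonin pair, HSP60 and its lid HSP10, had opposite orders at 2 and 4 h. Hspd1, which encodes HSP60, read 7373, 6292, 7593 and 7723, lowest at 2 h. Hspe1, which encodes HSP10 and starts from the shared window shown above, read 2862, 3228, 2565 and 2873, highest at 2 h and lowest at 4 h. The differences were small, 1.17-fold lower for Hspd1 and 1.13-fold higher for Hspe1 at 2 h than at 1 h, both within the robust SD of 0.29 (log2) over all probe sets. A second Hspd1 probe set read 218, 44.2, 221 and 316, below the floor at 2 h and at least 3.14-fold higher at 6 h. Both Hspd1 probe sets were thus lowest at 2 h and highest at 6 h, although the sizes differ widely.

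**Figure D4:**
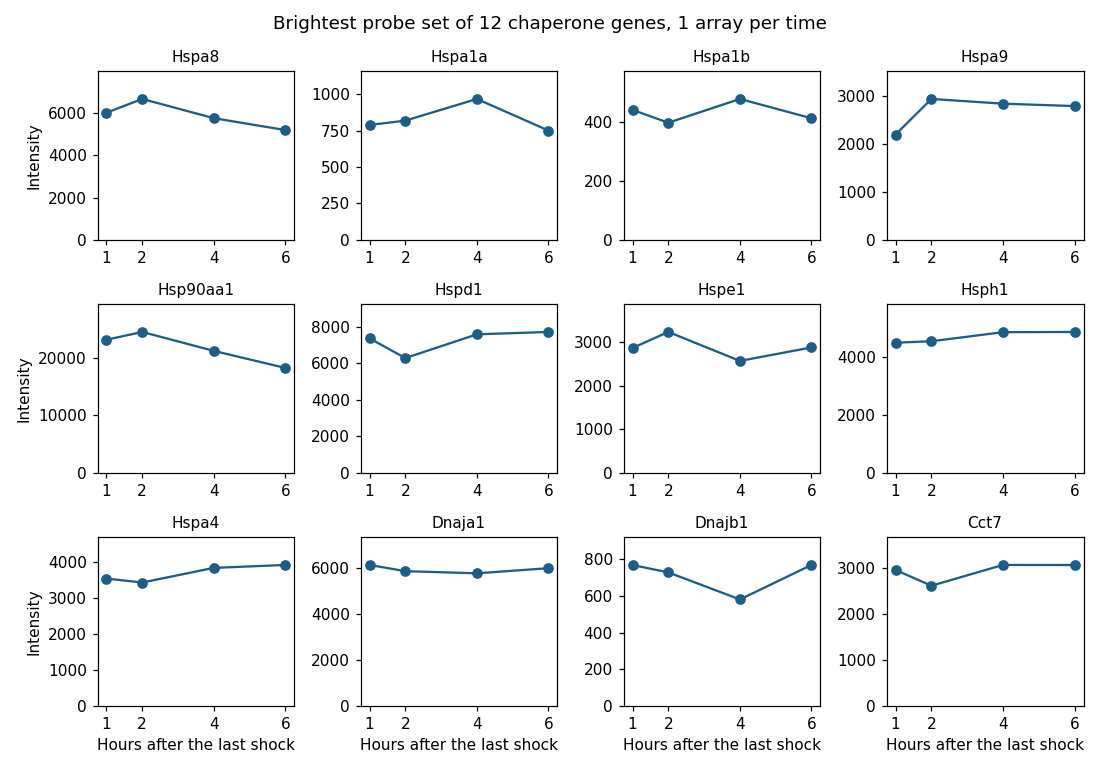
Intensity of the probe set with the highest mean of 12 chaperone genes against hours after the last shock, with 1 array per point and each vertical axis starting at 0. Highest and lowest points differ by at most 1.34-fold in each panel, with Hsp90aa1 and Hspa8 lowest at 6 h and Hspa9 lowest at 1 h.

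J proteins, the partners that bring substrates to HSP70, were the largest group, with 37 probe sets for 27 genes. Of 28 above the floor on all 4 arrays, 11 had a range of at least 1.5-fold, against 27.9% of all probe sets. The share over all was 45.2% with a mean under 500 and 12.4% with a mean of at least 500. The 28 include probe sets of both kinds, and their count was not tested against either share. Probe sets of the main cytosolic partners were among the narrow ones. Dnaja1 read 6144, 5874, 5779.8 and 6003, the narrowest range of the set at 1.06-fold. Dnaja2 read 980.4, 1229, 1172 and 1122, lowest at 1 h. Dnajb1, the stress-inducible partner of HSP70, read 769, 729, 581 and 769.7, so that 4 h lay 1.32-fold below 1 h and the other times were close. Dnajb2, a neuronal form, read from 465 to 585 and was highest at 2 h.

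Dnajb4 and Dnajc7 were lower at each later time. Dnajb4, a heat shock inducible relative of Dnajb1, read 503, 434, 348 and 244, so that 6 h lay 2.06-fold under 1 h. Dnajc7, a cofactor that binds both HSP70 and HSP90, read 973, 747, 699 and 652, so that 6 h lay 1.49-fold under 1 h, just inside the limit. Dnajc21, linked to ribosome assembly, read 439, 439, 383 and 247, apart from the other times at 6 h, where it lay 1.78-fold under the 1 h reading. Each of these 3 genes has a single probe set, and each was lowest on the 6 h array.

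J proteins known from other roles also differed at single times. Dnajc9 read 909, 955, 617 and 825, lowest at 4 h. Dnajb13, a protein of motile cilia, read 259, 265, 146 and 188, so that 4 h lay 1.78-fold under 1 h. Its second probe set read 115, 87.7, 131 and 59.2, highest at 4 h, so the 2 went against each other. Dnajc13, an endosomal J protein, read 234, 334, 309.8 and 265, lowest at 1 h, and Dnajc5 read 24.5, 160.2, 98.7 and 100.02, above the floor at 2 h alone. Dnajc17 was above the floor at 2 and 4 h, at 104 and 118, and below it at 1 and 6 h. The ribosome-associated Dnajc2 read 846, 718, 867 and 669.9 on 1 probe set and 751, 703, 574 and 583 on the other. Dnajc4 stayed between 229 and 247. Dnajb3, Dnajb5 and Dnajb8 did not exceed the floor on any array.

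The mitochondrial J proteins did not reach 1.5-fold. Dnaja3 read between 1195 and 1345, Dnajc11 between 402 and 504 and Dnajc15, which takes part in protein import, 309, 341, 431 and 326. Over all 6 mitochondrial probe sets above the floor on all 4 arrays, 0 had a range of at least 1.5-fold and the median range was 1.26-fold. Over all probe sets the share was 27.9%, or 12.4% with a mean of at least 500, and the median 1.32-fold, so a count of 0 in 6 is not a result about these genes.

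The J proteins of the endoplasmic reticulum had a median range of 1.57-fold over 8 probe sets of 5 genes, with 5 at or above 1.5-fold, against 27.9% of all probe sets. Most of the 8 have a mean under 500, where the share over all was 45.2%. Dnajb9, a cofactor of the reticulum's HSP70, read 422, 299, 479 and 467 on 1 probe set and 213, 121, 184 and 184 on the other. Both were lowest at 2 h, by 1.41-fold and 1.77-fold below 1 h. Dnajc10, a disulfide reductase, read 655, 566, 700.4 and 871, highest at 6 h. Dnajc3, an inhibitor of the stress kinase PERK, differed between its probe sets. That of mean 438 read 567, 564, 359 and 261, the dimmest of the 3 above the floor read 215, 236, 132 and 159, and the brightest read 501, 524, 447 and 549. The one of mean 438 was thus lowest at 6 h, where the brightest was highest. The dimmest and that of mean 438 have a letter in their name. The brightest has none, and its range was 1.23-fold. Dnajb11 read 439.7, 365, 498 and 418, lowest at 2 h, and Dnajc1 read 225, 192, 167 and 193. For comparison, the reticulum's own HSP70, Hspa5, read 3016, 3086, 2618 and 2512, and its HSP90, Hsp90b1, read 2247, 2669, 2982 and 2429.

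Of 12 TRiC probe sets above the floor on all 4 arrays, 3 had a range of at least 1.5-fold, against 27.9% of all probe sets. Cct7 read 2961, 2618, 3071 and 3068, and Cct4 read 1920.4, 1974, 1694 and 2396, highest at 6 h by 1.25-fold over 1 h. Cct2 read 442, 420.0, 413 and 360.3, lower at each later time. Cct8 read between 495 and 577, and the brighter probe set of Cct6a read between 926 and 1109 with the other below the floor. Cct3 has 3 probe sets, the brightest at 1123, 1118, 989.8 and 1215 and the others between 334 and 661, all with ranges under 1.3-fold. Although the products sit in 1 ring, the subunits' orders over the arrays differed, with the highest reading at each of the 4 times in some subunit. Most of the ranges were under 1.5-fold, with Cct7 and Cct8 both at 1.17-fold, and differences between subunits were not tested.

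The 3 wide TRiC probe sets belong to Tcp1, Cct5 and Cct6b. Tcp1, the first subunit described, read 191, 504, 482 and 253. The 2 h and 4 h readings exceeded that of 1 h by 2.64-fold and 2.52-fold, and the only other probe set of the gene read from 3.0 to 14.7, below the floor throughout. Cct5 read 3592, 3006, 3018 and 3087 on its bright probe set and 371, 128, 182 and 221 on its dim one. Both were highest at 1 h and lowest at 2 h, but by 1.19-fold and 2.90-fold. Cct6b, a testis form, read 169, 117, 109 and 168.

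Probe sets of the same gene gave a limited check on single readings. Of 21 member genes with several probe sets, 10 had at least 2 above the floor on all 4 arrays. In 3 of these 10 (Bag2, Cct5 and Dnajb6) the probe sets shared the time of the highest reading, and in 4 (these and Dnajb9) that of the lowest. Most of the 10 genes thus had probe sets that differed in these times. The same counts over all genes were not made, so agreement beyond that of unrelated probe sets was not shown. Dnajb6, a J protein that keeps polyglutamine proteins from aggregating, read 4618, 4147, 4929.7 and 4919 on its bright probe set and 343, 191, 390.5 and 272 on its dim one. The 2 h reading was thus 1.11-fold and 1.80-fold below that of 1 h. Dnajc8 read 4003, 4643, 4584 and 4229 on 1 probe set and 927, 880.2, 1459 and 1198 on the other. The second alone passed 1.5-fold, with 4 h exceeding 1 h by 1.57-fold, and both have a letter in their name.

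**Figure D5:**
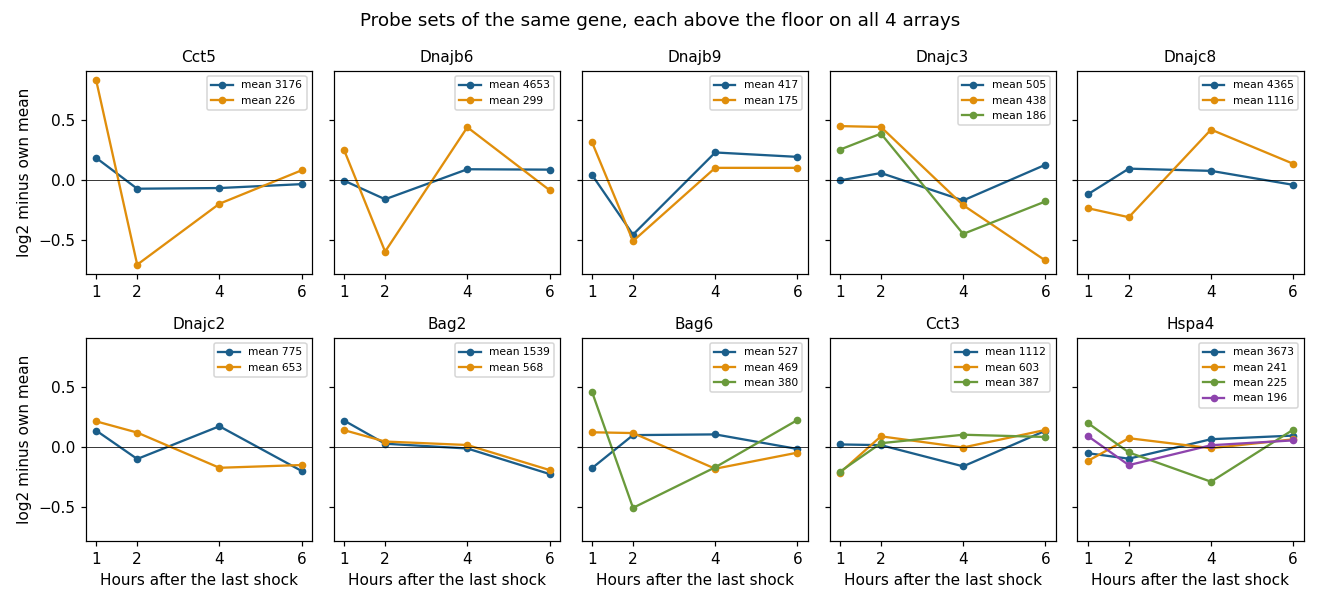
Log2 intensity minus the probe set's own mean against hours after the last shock for the 10 genes with at least 2 probe sets above the floor on all 4 arrays, 1 line for each probe set with its mean intensity in the legend. The lines of Bag2 run together, those of Cct5 and Dnajb6 share their order of extremes but not their size, and those of Dnajc3 part at 6 h.

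Of 8 probe sets for small heat shock proteins, 4 lay above the floor on all 4 arrays. Hspb1, which encodes HSP25 in the mouse, was below the floor on all 4 arrays with readings from 40.97 to 88.5. Cryab, the alpha-B crystallin that is abundant in oligodendrocytes, read 395, 299.7, 367 and 434, lowest at 2 h. Its second probe set read 49.8, 156, 51.6 and 20.3, above the floor at 2 h alone, and so went the other way. Of these Cryab probe sets the first has a letter in its name and the second has none. Markers of oligodendrocytes summed to 21389.9, 22433, 23395 and 22618 over 6 of 7 listed genes, with Cnp below the floor on all arrays and none at 0. At 6 h Mal lay below its 1 h reading, at 1218 against 1880, and the other markers above the floor lay above theirs. The part of oligodendrocyte markers in the Cryab readings was not tested.

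Hspb8, a partner of BAG3 in selective autophagy, read 473, 354, 376 and 533, highest at 6 h and with a range of 1.503-fold. Hspb11 had a like order, at 236, 143, 177 and 274. Hspb2, a muscle form, read 480.2, 407, 404 and 378 on a probe set with a letter in its name. Its second probe set, like that of Hspb8, was below the floor on all 4 arrays. All 4 measured members of the group lay below 1 h at 2 h and at 4 h, with medians of −0.41 and −0.29, and 3 of 4 lay above it at 6 h. Over all probe sets 3438 of 6942 lay below 1 h at 2 h and 3567 of 6886 at 4 h. The 4 include Hspb11, the intraflagellar transport subunit. They leave out the second Cryab probe set, which was above the floor at 2 h alone, at 156.

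Cofactors of HSP70 and HSP90 had 12 probe sets for 6 genes. Stip1, the organiser that hands substrates from HSP70 to HSP90, read 293, 176, 204 and 189.8, so that all later times lay below 1 h and 6 h by 1.54-fold. Bag1, an exchange factor that links HSP70 to the proteasome, read 1187, 760.5, 991 and 1002, so that 2 h lay 1.56-fold under 1 h. Bag2, an inhibitor of the ubiquitin ligase CHIP, read 1779, 1556, 1514 and 1307 and, on a second probe set, 622, 583, 571 and 494. Both were lower at each later time, by 1.36-fold and 1.26-fold at 6 h, and another probe set was above the floor at 2 h alone.

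Bag6, which guards tail-anchored membrane proteins, had a probe set at 506, 259, 327 and 429 and others at 508, 506, 412 and 452 and at 464, 562, 564 and 518. Their lowest readings came at 2, 4 and 1 h, so no course was shared, and the fourth probe set was below the floor on all 4 arrays. The probe set that read 259 at 2 h has a letter in its name, and so has that with 562. Bag3, the stress-inducible member that works with Hspb8, was near the floor, at 150.4, 56.0, 116 and 128 on 1 probe set and 109, 132, 100.4 and 130.2 on the other, with opposite readings at 2 h. Hspbp1, an exchange factor, stayed between 809 and 887. Over the group, 6 of 9 measured probe sets lay below 1 h at 2 h, with a median of −0.09, 8 of 9 at 4 h, with −0.26, and 7 of 10 at 6 h, with −0.23. Over all probe sets these counts were 3438 of 6942, 3567 of 6886 and 3583 of 6859. The robust SD of 0.29 is that of single differences and does not measure the spread of these medians. Bag6 alone gives 3 of the probe sets, and the group was not tested.

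Other genes of the chaperone system were taken from a separate list. Of 36 listed genes 28 were on the array and 24 lay above the floor on all 4 arrays, 6 of them with a range of at least 1.5-fold. On the arrays of 2, 4 and 6 h, 1, 0 and 0 of these genes exceeded their 1 h reading by at least 1.5-fold, and 2, 3 and 1 lay under it by as much. These counts stand beside 5.59%, 3.38% and 3.76% higher, 4.84%, 5.33% and 5.82% lower and 27.9% wide over all probe sets. Hsbp1, which binds HSF1, was the higher one, at 3155, 4973, 2872 and 3022. Unc45a, a chaperone of myosin and HSP90 cofactor, read 298, 107, 128 and 136, lower at all 3 later times. St13, which stabilises HSP70 complexes, read 376, 249, 435 and 444, lowest at 2 h, and the prefoldin subunit Pfdn5 read 252, 236, 107 and 225, lowest at 4 h. Ttc1 was also lower at 4 h, at 259.6, 298, 149 and 213. Hsf1, the gene of HSF1, was listed but was not among the 28, so it was not read here. The heat shock factor Hsf2 was below the floor on all 4 arrays, and Hsf4 was above it at 2 and 4 h, at 129 and 102. The HSP90 cofactors Cdc37, at 782, 981, 948 and 769, and Chordc1, at 745, 815, 923 and 905, stayed within 1.28-fold and 1.24-fold.

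Of CA1 pyramidal markers, 3 of 5 listed genes were on the array. No other brain region was compared, so their readings do not test the tissue label. Wfs1 and Neurod6 were above the floor on all 4 arrays, and Camk2a at 1 h alone. Wfs1 read 1709, 1637, 2608 and 2205, with 4 h exceeding 1 h by 1.53-fold, and Neurod6 read 768, 648, 1263 and 1089, with 4 h exceeding 1 h by 1.64-fold. Their part in the members' differences from 1 h was not tested. Astrocyte markers, with 5 of 6 on the array, summed to 21395, 22143, 19343 and 19902 from 1 to 6 h, and microglial markers, all 5 on the array, to 4246.5, 3728, 4241 and 4490.3. Of the astrocyte markers, Aldoc, Aqp4 and Gja1 lay below 1 h at 4 and 6 h, while Gfap and Slc1a2 lay above it. Endothelial markers, all 5 on the array, summed to 1158, 951, 948 and 786, with median log2 differences from 1 h of −0.06, −0.21 and −0.30 over the 3 measured, and none was at 0. The 3 were split at 6 h. Kdr read 174 there against 130 at 1 h, while Flt1 read 214 against 342 and Cldn5 320 against 393. Pecam1 was above the floor at 1 h alone, at 217, and Tek on no array. The part of endothelial markers in the members that were lower at later times was not tested. Blood markers, 2 of 3 on the array, summed to 2955, 3111, 3752 and 3479. Fewer cells of a type and less RNA in each cell cannot be told apart in such tissue samples.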

How the data were processed

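Total RNA of 4 CA1 samples, 1 for each time, was read on arrays of 12488 probe sets. The deposited values are linear intensity, already brought by the authors to a common trimmed mean of 500.3 on each array, as the values show. How they were made is not given in the sources used here. Each array was rescaled to the same mean over the 12422 probe sets other than 66 controls, trimmed by 2% at each end, with factors from 0.999 to 1.001. Values at or under the 40th percentile, 100.8, were treated as bounds. The limit for a difference was 1.5-fold, and log2 differences used probe sets above the floor on both arrays. Detection calls and depth are not known for these arrays.

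Probe sets were named from the platform annotation, and all 60 member genes were found in RefSeq by identifier with 0 symbols changed. A gene outside the set is given by its probe set with the highest mean. Genes named were those with a wide range, the brightest of each role, a fixed set of main chaperones, genes with several probe sets and, so that all are accounted for, the rest. The members and lists were chosen with earlier results of these data known. Orders over the arrays and the limit on mean intensity were added after the data were seen. The steps were tested on simulated data. Alternatives were other scalings, floors and fold limits, other choices of probe sets and members, and each array left out. Tables were computed with pandas 2.3.3 and NumPy 2.4.6 under Python 3.11.15, and plots were drawn with matplotlib 3.10.9.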

Additional observations from a re-analysis of the deposited data

How the results depend on the processing

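Counts are given as higher and lower than at 1 h, and otherwise as the number apart at 1 time or with a range of at least 1.5-fold (wide). As reported they were 2 and 7 at 2 h, 2 and 6 at 4 h, 0 and 5 at 6 h, 4 apart and 20 wide. The 3 medians differed from those reported by less than 0.1 (log2) under each alternative run, and that of 6 h lay between −0.07 and 0.04, so its sign was not kept. With the floor at the 20th percentile the counts were 5 and 11 at 2 h, 3 and 8 at 6 h and 8 apart. With the floor at the 60th they were 1 and 1 at 2 h, 1 and 2 at 4 h, 0 lower at 6 h, 1 apart and 7 wide. At 1.3-fold they were 4 and 12, 4 and 16, and 3 and 9 at the 3 times, 14 apart and 35 wide. At 2-fold they were 1 and 1 at 2 h, 1 and 1 at 4 h, 2 lower at 6 h, 0 apart and 5 wide. Plain probe sets alone gave 1 and 3 at 4 h. Without the J proteins there were 1 and 3 at 4 h, 2 lower at 6 h, 2 apart and 9 wide. With 1 probe set a gene there were 3 lower at 2 h, 1 and 2 at 4 h, 3 lower at 6 h, 2 apart and 13 wide. A common median gave 1 higher at 6 h. Without the 1 h, 4 h or 6 h array 7, 10 and 10 were apart, and without the 2 h array 12 were wide. With a mean intensity of at least 500, a limit chosen after the data were seen, there were 1 and 1 at 2 h, 1 and 0 at 4 h, 0 lower at 6 h, 1 apart and 5 wide. Stricter floors and fold limits and fewer probe sets give lower counts by construction, and looser floors and fold limits give higher ones. With an array left out, a probe set need differ from fewer arrays to be apart, and its range cannot widen. With a common median the 6 h median over all probe sets was 0.07, against −0.02 as reported. The cause of the other changes was not tested. Counts of single probe sets therefore depend on the limits, and dim readings limit them. No paired analysis was possible because each time has 1 array and no replicate number.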
